A study of Mus musculus with 12 samples.

Results

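Transcript levels of 9 genes that encode subunits of the PCGF6 variant of Polycomb repressive complex 1 (PRC1), *Pcgf6*, *Mga*, *Max*, *L3mbtl2*, *E2f6*, *Tfdp1*, *Cbx3*, *Ehmt1* and *Ehmt2*, were examined in mouse spermatogonia. The genes were taken by name from a table of 55385 genes, and all 9 were found once in the table and exceeded the filter on low values in each comparison. The table gives TPM (a transcript level corrected for transcript length, scaled to the same total in each library) for 12 RNA-seq libraries of cells sorted from testis, in 6 groups of 2. Wild-type (WT) libraries came from untreated adult C57BL/6 males, 2 to 3 months old per the study's methods, as undifferentiated spermatogonia (Aundiff, E-Cadherin+ CD9high KIT-) and early differentiating spermatogonia (Adiff, E-Cadherin+ CD9medium KIT+). The other groups were Aundiff from C57BL/6 X FVB/NJ males. PRC1cKO males carried Ring1-/-; Rnf2 F/-; Ddx4-Cre, and their PRC1ctrl littermates carried Ring1-/-; Rnf2 F/+; Ddx4-Cre, so that controls also lacked *Ring1*. The Ddx4-Cre driver acts in germ cells, and other testis cells keep their floxed *Rnf2* allele. PRC1ctrl and PRC1cKO Aundiff were taken either without treatment at 2 months (mo) or after Win18,446, an inhibitor of the retinoic acid synthesizing enzyme ALDH1A2. Treated mice were 1 month old at the start, received 40 μg/μl in 50 μl DMSO subcutaneously on about 30 consecutive days, and were sampled 24 h after the last dose. No PRC1 mice given DMSO alone were analysed here.

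PRC1 complexes place ubiquitin on lysine 119 of histone H2A through the E3 ligases RING1 and RNF2, and the PCGF subunit defines which variant is formed. In the PCGF6 variant, DNA contact is made by sequence-specific proteins: MGA with its partner MAX at E-boxes, and E2F6 with its partner DP1 (encoded by *Tfdp1*) at E2F sites. L3MBTL2, CBX3 (HP1γ) and the histone H3 lysine 9 methyltransferases EHMT1 (GLP) and EHMT2 (G9a) add a link to repressive chromatin. The complex is best known for keeping germline and meiotic genes silent in embryonic stem cells and somatic cells. It is of particular interest in spermatogonia, where many of these genes are in use.

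The letters that the DNA-binding members recognize were therefore read first in the promoters of 16 germline genes known from other systems as targets of the complex. Promoter windows of 250 bases before to 50 bases after a gene's start were taken from RefSeq (GRCm38.p6, 1 window per gene). They were searched on both strands for the E-box CACGTG and the E2F core TCCCGC. Of 27025 windows, 7.24% held the E-box, 20.1% held the E2F core and 2.05% held both. Of the 15 target genes with a window, 8 (53.3%) held the E-box, 9 (60.0%) the E2F core and 6 (40.0%) both. These windows were richer in GC (mean 61.1%) than all windows (mean 53.6%), and both motifs consist mostly of G and C. Stretches of 30 bases from the 6 genes with both motifs are shown because they carry the E-box and the E2F core within 1 promoter. Each is written 5′ to 3′ on the strand of the gene, with the motif in capitals (GCGGGA is the E2F core read from the other strand) and with its position on GRCm38.
*Ddx4* E-box, chr13:112652322-112652351, minus strand: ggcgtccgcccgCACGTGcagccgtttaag
*Ddx4* E2F core, chr13:112652429-112652458, minus strand: tccgtccatgggGCGGGAagtcgcgcgccg
*Mael* E-box, chr1:166238950-166238979, minus strand: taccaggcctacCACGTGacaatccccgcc
*Mael* E2F core, chr1:166238870-166238899, minus strand: gctcctcctcccTCCCGCcccctccgcccc
*Slc25a31* E-box, chr3:40708766-40708795, plus strand: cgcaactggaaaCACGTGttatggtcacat
*Slc25a31* E2F core, chr3:40708879-40708908, plus strand: cagcgcccgcttTCCCGCcagggtaaagct
*Stag3* E-box, chr5:138280327-138280356, plus strand: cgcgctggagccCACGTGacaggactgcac
*Stag3* E2F core, chr5:138280495-138280524, plus strand: tatcccgtgcctTCCCGCgtttttttctaa
*Hormad1* E-box, chr3:95559608-95559637, plus strand: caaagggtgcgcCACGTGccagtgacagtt
*Hormad1* E2F core, chr3:95559570-95559599, plus strand: gcgcagcttttgGCGGGAatagtggtctgg
*Sycp3* E-box, chr10:88459511-88459540, plus strand: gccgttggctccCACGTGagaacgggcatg
*Sycp3* E2F core, chr10:88459428-88459457, plus strand: aaggaaggaacaGCGGGAaagtgctgcttc

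The members' own promoter windows were searched in the same way, and 5 of 9 held at least 1 of the motifs, beside 25.2% of all windows. Their mean GC content was 66.8%. The E-box was present in *Max*, *Tfdp1* and *Ehmt2*, and the E2F core in *E2f6*, *Tfdp1*, *Ehmt1* and *Ehmt2*. *Pcgf6*, *Mga*, *L3mbtl2* and *Cbx3* held neither motif. The windows around the motif of *Max*, *E2f6* and *Ehmt1* are shown because the motif lies close to the RefSeq start of transcription and because the levels of all 3 genes differed between WT Aundiff and Adiff, as given further on. The motif of *Max* began 3 bases before the start and that of *E2f6* 53 bases before it. The E2F core of *Ehmt1* began at the start itself. These starts are those of RefSeq and can differ from the gene ends given below with the gene identifiers, as they do for *Max*, *Cbx3*, *E2f6*, *Ehmt1* and *Ehmt2*. These are matches of letters, and binding was not measured in these libraries.
*Max* E-box, chr12:76962234-76962263, minus strand: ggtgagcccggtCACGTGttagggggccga
*E2f6* E2F core, chr12:16810900-16810929, plus strand: ggaccggtgtgcGCGGGAgatctaacggac
*Ehmt1* E2F core, chr2:24919592-24919621, minus strand: gggcgatggcgcGCGGGAggggcggggcca

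**Figure D1:**
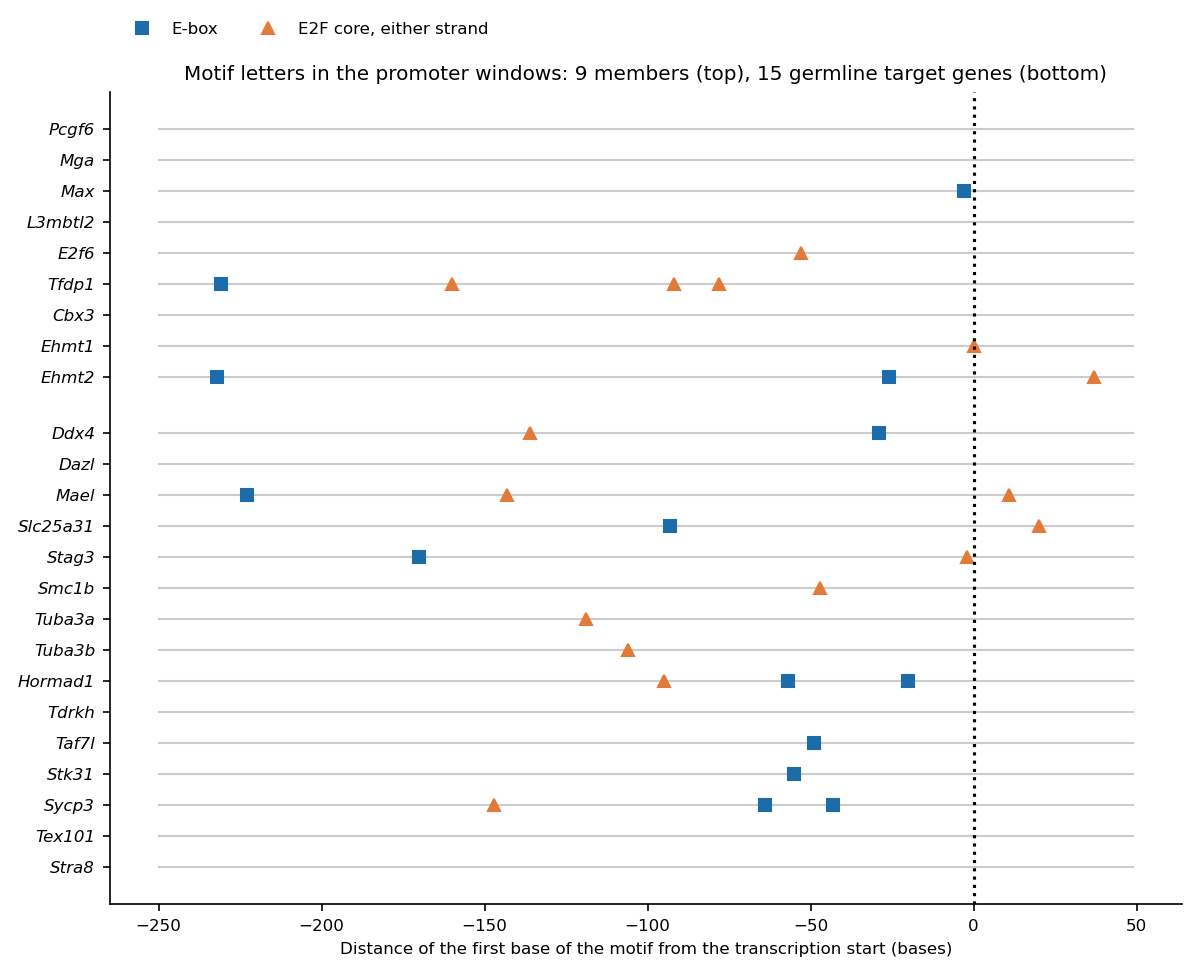
Position of the first base of each E-box (squares) and E2F core on either strand (triangles), in bases from the transcription start, in the 300-base promoter windows of the 9 members and of the 15 germline target genes with a window. Motifs appear in 5 of 9 members and in 11 of 15 target genes, and the windows of *Pcgf6*, *Mga*, *L3mbtl2*, *Cbx3* and *Stra8* are among those with neither.

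The libraries were not all made with the same kit. The 4 PRC1 libraries at 2 mo were made by Smart-Seq2 with a low-input kit, and the 8 WT and Win18,446 libraries with a stranded TruSeq kit, so kit, treatment and, against WT, strain cannot be told apart between these sets. TPM-weighted transcript GC content was 44.9% to 46.3% in the Smart-Seq2 libraries and 49.1% to 50.2% in the TruSeq libraries, and mitochondrial genes took 12.5% to 16.7% and 4.28% to 6.69% of TPM. TPM holds no depth, so the counting error behind a value is unknown and the precision rests on 2 libraries per group. From 12422 to 16599 genes reached 1 TPM. *Ring1* lay between 0.03 and 0.25 TPM in all 8 PRC1 libraries, against 8.61 to 19.9 TPM in WT. *Rnf2*, of which the floxed part cannot be seen in a level for the whole gene, was 28.3 and 47.6 TPM in PRC1ctrl and 56.7 and 67.5 TPM in PRC1cKO at 2 mo. After Win18,446 it was 78.1 and 67.2 TPM in PRC1ctrl and 86.2 and 93.1 TPM in PRC1cKO. Because *Rnf2* was not lower under the label PRC1cKO, these are called the libraries labelled PRC1cKO. The 7 markers of undifferentiated spermatogonia summed to 835 to 928 TPM in WT Aundiff and 188 to 198 TPM in WT Adiff, and all 7 reached 1 TPM in every Aundiff group.

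TPM is a level per length, so the members can be ranked within a library. In WT Aundiff the most abundant was *Ehmt2* (309 and 429 TPM), followed by *Tfdp1* (216 and 206 TPM) and *Cbx3* (193 and 166 TPM). *E2f6* (78.8 and 79.6 TPM) and *Mga* (84.0 and 74.0 TPM) overlapped each other, as did *Max* (52.1 and 50.1 TPM) and *L3mbtl2* (42.7 and 57.0 TPM). The subunit that names the complex was among the scarcest, with *Pcgf6* at 31.4 and 29.0 TPM and *Ehmt1* at 23.2 and 26.8 TPM. This order did not hold in the Smart-Seq2 libraries. In PRC1ctrl Aundiff at 2 mo, *Pcgf6* was 114 and 109 TPM and *Ehmt2* 7.59 and 14.3 TPM. In bulk samples, fewer cells of a type and less RNA per cell cannot be told apart, and this holds for every level given here.

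**Figure D2:**
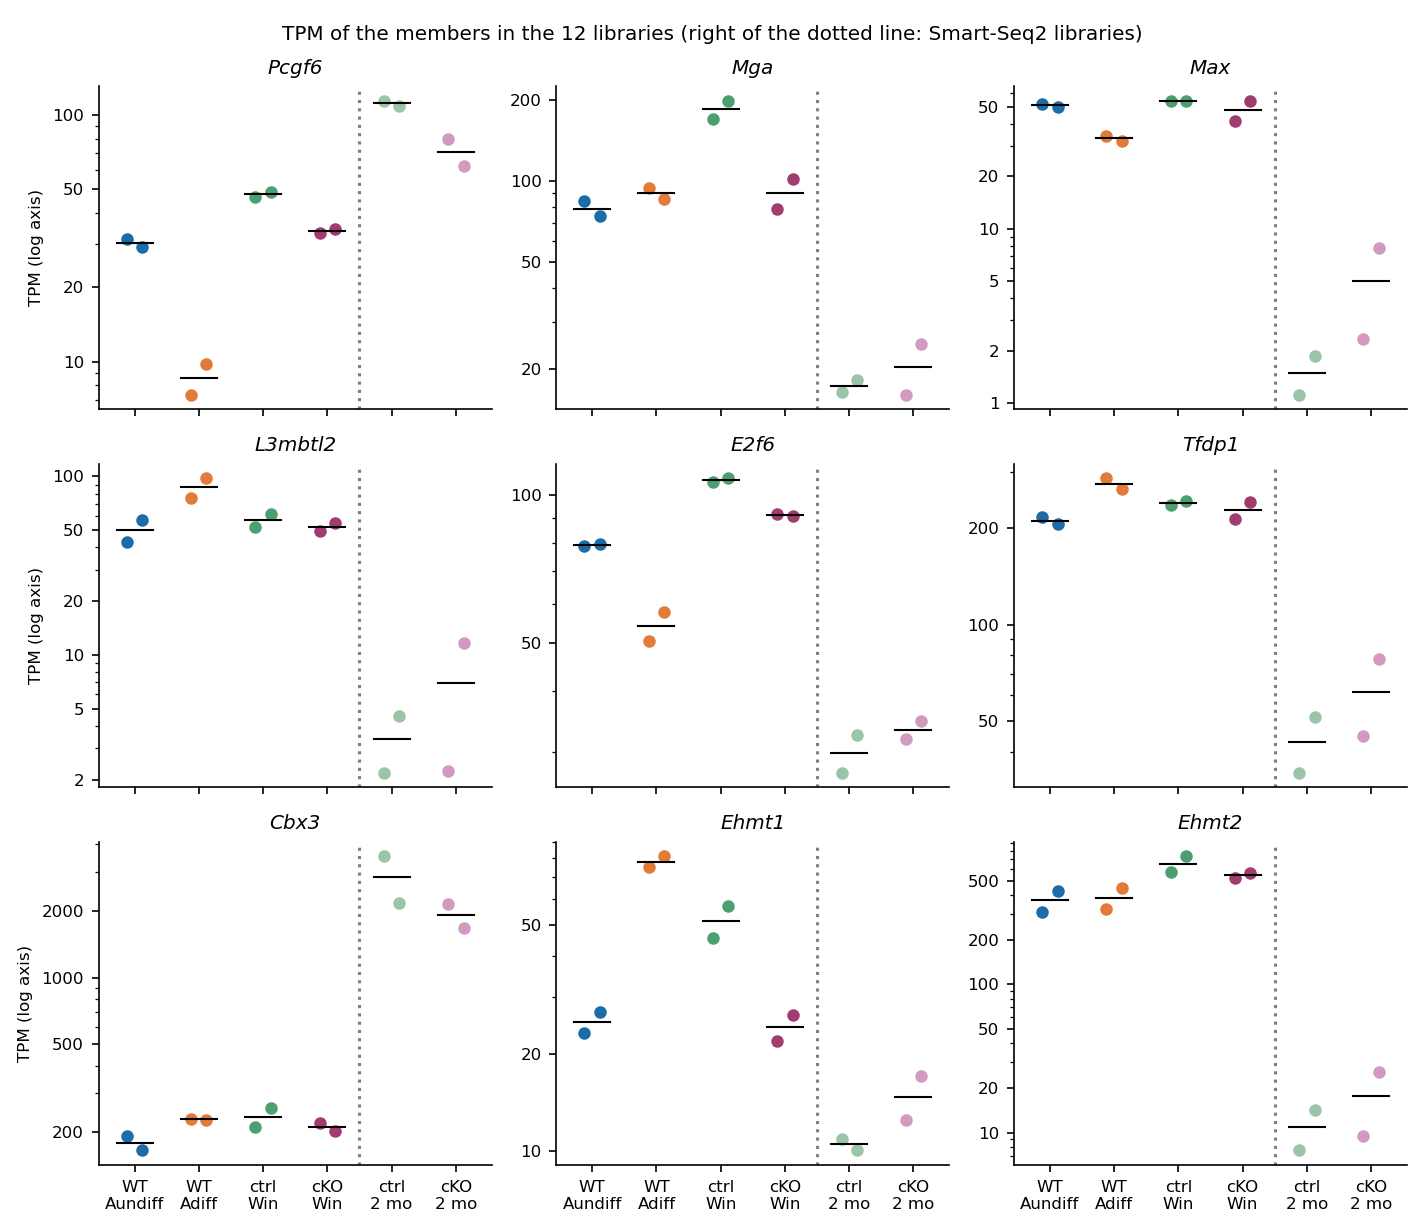
TPM on a log axis of each member in the 12 libraries, 1 panel per gene and 1 point per library, with the Smart-Seq2 libraries of PRC1ctrl and PRC1cKO at 2 mo right of the dotted line. *Pcgf6* is lowest in WT Adiff (7.33 and 9.78 TPM), and each member's 4 Smart-Seq2 libraries lie outside the range of its 8 TruSeq libraries.

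The first comparison asked how the subunits differ between Aundiff and Adiff of WT mice. *Pcgf6* was lower and *Ehmt1* higher in Adiff, while partners of *Pcgf6* changed by smaller amounts in both directions. In limma on log2(TPM + 1), 6 of 9 members passed an adjusted p of 0.05, 3 higher and 3 lower in Adiff, beside 38.1% of the 15470 genes tested (23.4% higher and 14.7% lower). Only *Pcgf6* and *Ehmt1* also changed by more than 1 on the log2 scale, a pair of thresholds passed by 20.4% of all genes. The libraries of the groups did not overlap for 8 of 9 members, against 72.1% of all genes. The median change of all genes was 0.15 on the log2 scale, and that of the members 0.19. Among genes past both thresholds 45.3% were lower in Adiff, and after median-of-ratios scaling 60.0%. Markers of other cells moved with this step as well. The 6 spermatocyte markers summed to 42.6 to 46.6 TPM in Aundiff and 84.2 TPM in Adiff, the 7 Sertoli cell markers to 60.3 to 66.8 TPM and 37.4 to 38.8 TPM, and the 7 spermatid markers to 796 to 876 TPM and 543 to 729.5 TPM, with none of these markers at 0 in both libraries of a group. Their part in the levels of the members was not tested.

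*Pcgf6* (ENSMUSG00000025050, chr19:47033617-47050906, minus strand) encodes the PCGF subunit that gives the complex its identity. It was 31.4 and 29.0 TPM in WT Aundiff and 7.33 and 9.78 TPM in WT Adiff. Both Adiff libraries lay far below both Aundiff libraries, and the group mean was 30.2 ± 1.67 TPM (SD, n = 2) against 8.56 ± 1.73 TPM (SD, n = 2), a 3.53-fold lower level. The log2 fold change was -1.72 with an SE of 0.20 (limma adjusted p = 0.00232), and -1.87 relative to the median of all genes. The change passed the test in 15 of 15 alternative settings, with values from -1.91 to -1.53.

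*Pcgf6* also lost ground to its paralogs, which compete for the same RING1 and RNF2 ligases. Within a library, *Pcgf6* made up 9.32% and 9.18% of the summed TPM of the 6 PCGF genes in WT Aundiff and 1.45% and 2.22% in WT Adiff. *Pcgf5*, of another variant PRC1, was 124 and 112 TPM in Aundiff and 214 and 201 TPM in Adiff. *Pcgf2*, a subunit of canonical PRC1, was 30.3 and 26.4 TPM in Aundiff and 55.7 and 70.4 TPM in Adiff. Levels of *Pcgf6* and *Pcgf2* were thus near 1 to 1 in Aundiff (ratios 1.04 and 1.10) and fell apart in Adiff (0.132 and 0.139), and these ratios do not depend on the scaling of a library. *Bmi1*, the other canonical PCGF gene, overlapped between the groups (104 and 91.5 TPM against 145 and 88.3 TPM).

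Of the DNA-binding partners, *Max* and *E2f6* fell. *Max* (ENSMUSG00000059436, chr12:76937269-76962201, minus strand), the common partner of MGA, MYC and the MXD repressors, was 52.1 and 50.1 TPM in Aundiff and 34.1 and 32.0 TPM in Adiff (log2 fold change -0.61, SE 0.14, limma adjusted p = 0.0175). *E2f6* (ENSMUSG00000057469, chr12:16810963-16839742, plus strand), an E2F that represses without the pocket protein domain of its relatives, was 78.8 and 79.6 TPM in Aundiff and 50.5 and 58.0 TPM in Adiff (log2 fold change -0.54, SE 0.14, limma adjusted p = 0.0250). For both genes each Adiff library lay below each Aundiff library. Of 15 alternative settings, *Max* passed in 12, with a limma adjusted p of up to 0.272, and *E2f6* passed in 10. With 1 library left out, the log2 fold change was -0.66 to -0.57 for *Max* and -0.64 to -0.44 for *E2f6*.

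*Mga* and *Tfdp1*, the partners of these proteins, were not lower in Adiff. *Mga* (ENSMUSG00000033943, chr2:119897228-119969581, plus strand), the scaffold that joins a T-box and an E-box binding domain, was 84.0 and 74.0 TPM in Aundiff and 94.6 and 85.7 TPM in Adiff. These libraries lie just apart, and the difference did not pass the test (log2 fold change 0.19, SE 0.14, limma adjusted p = 0.318). *Tfdp1* (ENSMUSG00000038482, chr8:13338751-13378448, plus strand), the DP1 partner of E2F proteins in general, was 216 and 206 TPM in Aundiff and 286 and 265 TPM in Adiff (log2 fold change 0.38, SE 0.12, limma adjusted p = 0.0424). After scaling by median of ratios, *Tfdp1* changed by 0.21 and no longer passed (limma adjusted p = 0.202). It passed in only 7 of 15 alternative settings, with a limma adjusted p of up to 0.33. With 1 library left out, *Tfdp1* changed by 0.33 to 0.44.

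The proportions of the pairs therefore shifted. *Mga* exceeded *Max* by 1.61 and 1.48 times in the WT Aundiff libraries and by 2.77 and 2.68 times in the WT Adiff libraries. *E2f6* held 43.8% and 41.7% of the summed TPM of the E2F genes in Aundiff but 19.9% and 20.4% in Adiff. Both Adiff libraries were on one side of both Aundiff libraries in each of these measures. Against *E2f1*, an activating E2F of the S phase, *E2f6* stood at 1.62 and 1.36 times its level in Aundiff and at 0.603 and 0.548 times in Adiff. Transcript length moved with this comparison. Among 5 classes of all tested genes by longest annotated transcript, the median log2 fold change was 0.01 in the shortest and 0.27 in the longest. *Mga* (13931 bases) was in the longest class, and *Max* (1942 bases) in a class with a median of 0.10. The part of transcript length in these proportions was not tested.

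Of the members tied to modified histones, *L3mbtl2* and *Ehmt1* rose. *L3mbtl2* (ENSMUSG00000022394, chr15:81663889-81688315, plus strand), whose MBT domains give the protein its name, was 42.7 and 57.0 TPM in Aundiff and 76.2 and 97.4 TPM in Adiff. Its libraries did not overlap (log2 fold change 0.79, SE 0.20, limma adjusted p = 0.0234), but it passed in only 9 of 15 alternative settings. The limma adjusted p was 0.0541 after median-of-ratios scaling and reached 0.307 among the settings. With 1 library left out, the log2 fold change was 0.59 to 0.99. *Chadl* lies over 17.2% of its exonic bases on the opposite strand, and the TruSeq kit used for these libraries keeps strand.

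*Ehmt1* (ENSMUSG00000036893, chr2:24789928-24919614, minus strand), which methylates histone H3 lysine 9 as a heterodimer with EHMT2, was 23.2 and 26.8 TPM in WT Aundiff and 75.1 and 81.2 TPM in WT Adiff. Each Adiff library was above each Aundiff library, and the group mean rose from 25.0 ± 2.55 to 78.1 ± 4.30 TPM (SD, n = 2), a 3.13-fold higher level. The log2 fold change was 1.61 with an SE of 0.15 (limma adjusted p = 0.0014), and 1.46 relative to the median of all genes. As for *Pcgf6*, the change passed in 15 of 15 alternative settings, with values from 1.42 to 1.71.

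The catalytic partner stayed at overlapping levels. *Ehmt2* (ENSMUSG00000013787, chr17:34898469-34914052, plus strand) was 309 and 429 TPM in Aundiff and 324 and 446 TPM in Adiff (log2 fold change 0.06, SE 0.21, limma adjusted p = 0.846). With a correction for transcript GC content, which is 60.8% in *Ehmt2* and the highest of the members, the change was -0.38 (adjusted p = 0.0379). The ratio of *Ehmt1* to *Ehmt2* was 0.0749 and 0.0625 in Aundiff and 0.232 and 0.182 in Adiff, so that *Ehmt2* transcripts were the more abundant in all 4 WT libraries and by a smaller margin in Adiff. In the Smart-Seq2 libraries of Aundiff the same ratio was 0.664 to 1.44.

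*Cbx3* (ENSMUSG00000029836, chr6:51470360-51483704, plus strand), the HP1γ protein that binds methylated histone H3 lysine 9, was 193 and 166 TPM in Aundiff and 230.4 and 228 TPM in Adiff. The higher level in Adiff did not pass the test (log2 fold change 0.35, SE 0.13, limma adjusted p = 0.0686; 0.0281 with a block for the replicate number). The value is uncertain because of processed copies of the gene. One of these, *Cbx3-ps6*, was listed at 27.8 to 203 TPM in the 8 TruSeq libraries and at 0 in the 4 Smart-Seq2 libraries, and how reads were divided between gene and copy is not known.

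**Figure D3:**
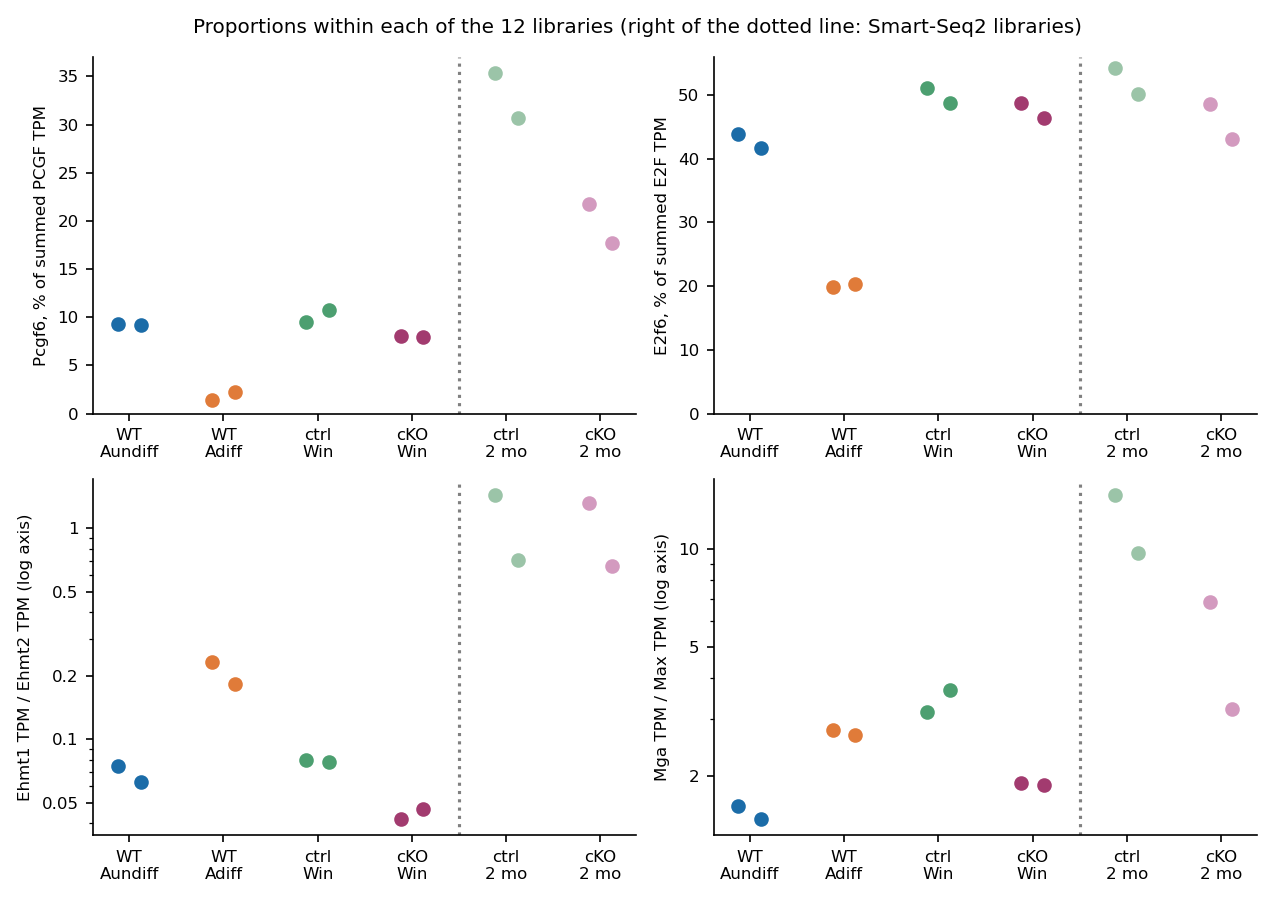
Proportions within each of the 12 libraries, 1 point per library: *Pcgf6* in percent of the summed TPM of 6 PCGF genes, *E2f6* in percent of the summed E2F TPM, and the ratios *Ehmt1* to *Ehmt2* and *Mga* to *Max* on log axes. In WT, *Pcgf6* goes from 9.18% and 9.32% in Aundiff to 1.45% and 2.22% in Adiff, and *E2f6* from 41.7% and 43.8% to 19.9% and 20.4%.

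Relatives and shared partners of the members were counted in the same comparison. As background for each list, 23.4% of all tested genes were higher in Adiff and 14.7% lower. Of all genes that passed, 38.6% were lower, and 53.3% after median-of-ratios scaling. Of 7 shared PRC1 partners (*Rnf2*, *Ring1*, *Rybp*, *Yaf2*, *Wdr5*, *Hdac1* and *Hdac2*), 6 passed and all 6 were higher in Adiff (median log2 fold change 0.80), of which 3 passed after median-of-ratios scaling. *Yaf2*, which like RYBP links RING proteins to variant PRC1, rose from 12.4 and 13.8 TPM to 32.5 and 36.8 TPM (log2 fold change 1.34, limma adjusted p = 0.0028). Of the other 5 PCGF genes, 3 were higher and none lower, and *Pcgf2* had the largest change (1.12, limma adjusted p = 0.00532; 0.0666 with the spread taken from all 12 libraries).

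Of the 10 MAX network genes tested, 3 were higher and 1 lower in Adiff, with a median of 0.21. *Mycn*, a MYC protein that pairs with MAX to activate genes, fell with *Max* from 40.8 and 52.3 TPM to 19.4 and 23.5 TPM (log2 fold change -1.08, limma adjusted p = 0.00751). *Mlxipl*, which pairs with MLX, rose by 1.26 (limma adjusted p = 0.0131; 0.0605 without WT Aundiff replicate 1). Of the 8 other E2F and DP genes, 5 were higher and none lower, with a median of 0.86. The 3 that rose most were *E2f8* (2.16, limma adjusted p = 0.00194), *E2f7* (1.89, 0.002) and *E2f2* (1.84, 0.00373). *E2f7* and *E2f8* are repressors without a DP partner, and *E2f2* is an activator. These E2F genes started far below *E2f6* in Aundiff, where *E2f8* was 3.49 and 2.46 TPM, *E2f7* 5.37 and 5.44 TPM and *E2f2* 1.21 and 1.36 TPM.

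Among MBT domain relatives of *L3mbtl2*, 2 of 5 tested were higher and 1 lower, and none reached a log2 change of 1. Of 8 HP1 relatives and H3 lysine 9 methyltransferase genes, 5 were higher and 1 lower, with a median of 0.67. *Cbx1*, encoding HP1β, rose from 30.5 and 28.3 TPM to 89.4 and 68.0 TPM (log2 fold change 1.38, limma adjusted p = 0.00291). *Wiz*, a zinc finger partner of EHMT1 and EHMT2, rose with *Ehmt1* from 26.1 and 31.9 TPM to 65.9 and 85.5 TPM (1.35, limma adjusted p = 0.00376).

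The 16 germline target genes went both ways in the same step in which *Pcgf6* fell. In Adiff 6 were higher and 2 lower, beside 23.4% and 14.7% of all tested genes, and the other 8 did not pass. Their median was 0.42 beside 0.15 for all genes. *Stra8*, induced by retinoic acid and also among the markers used for differentiating spermatogonia, was 66.2 and 53.2 TPM in Aundiff and 675 and 581 TPM in Adiff (log2 fold change 3.38, limma adjusted p = 0.000221). *Smc1b*, a cohesin subunit of meiosis, was 38.2 and 41.3 TPM in Aundiff and 112 and 73.4 TPM in Adiff (1.17, limma adjusted p = 0.00881). The α-tubulin gene *Tuba3b* rose by 1.14 (limma adjusted p = 0.00224; 0.288 with the spread taken from all 12 libraries), with the reservation that *Tuba3a* is nearly identical and may share its reads.

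Of these 3 genes, *Smc1b* and *Tuba3b* held the E2F core without the E-box, and these stretches are shown as targets with that motif alone that rose in Adiff. The window of *Stra8*, with the largest rise, held neither. The other target genes that passed are named to complete the picture, and none exceeded 1 on the log2 scale. With both motifs, *Stag3* was higher (0.82, limma adjusted p = 0.0331) and *Mael* lower (-0.74, 0.00556). *Dazl*, with neither motif, was higher (0.62, 0.0231), and *Stk31*, with the E-box alone, was lower (-0.79, 0.0103). *Tuba3a*, with the E2F core alone, was higher (0.95, 0.00356). The *Tuba3a* stretch is set beside that of *Tuba3b* because these are the target genes whose reads are hard to tell apart.
*Smc1b* E2F core, chr15:85131987-85132016, minus strand: aaaagaatttctTCCCGCgctttttttttt
*Tuba3a* E2F core, chr6:125286183-125286212, minus strand: actccagagcctTCCCGCcaaagccacatc
*Tuba3b* E2F core, chr6:145615845-145615874, plus strand: actccagagcctTCCCGCcaaatttacatc

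The second comparison set the libraries labelled PRC1cKO against PRC1ctrl after Win18,446, where the block of retinoic acid synthesis holds spermatogonia before differentiation. *Mga*, *Ehmt1* and *Pcgf6* were lower in the libraries labelled PRC1cKO, and no member was higher. In limma, 3 of 9 members passed, all lower, beside 32.6% of 16521 genes tested (5.87% higher and 26.7% lower). *Mga* and *Ehmt1* also exceeded 1 on the log2 scale, as did 12.2% of all genes at that adjusted p. The groups did not overlap for 5 of 9 members, against 69.4% of all genes. The median of all genes was -0.19 and that of the members -0.23. Among genes past both thresholds 89.6% were lower, and after median-of-ratios scaling 77.0%.

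*Mga* was 170.2 and 199 TPM in PRC1ctrl and 78.5 and 102 TPM in the libraries labelled PRC1cKO. The groups lay well apart, at means of 185 ± 20.3 and 90.2 ± 16.5 TPM (SD, n = 2), a 2.05-fold lower level (log2 fold change -1.03, SE 0.16, limma adjusted p = 0.00488). *Ehmt1* was 45.4 and 57.1 TPM in PRC1ctrl and 21.9 and 26.3 TPM in the libraries labelled PRC1cKO. This was a 2.13-fold lower level, with means of 51.2 ± 8.29 and 24.1 ± 3.10 TPM (SD, n = 2; log2 fold change -1.05, SE 0.16, limma adjusted p = 0.00495). Relative to the median of all genes both members remained lower, at -0.85 for *Mga* and -0.87 for *Ehmt1*, and after median-of-ratios scaling they passed at -0.79 and -0.82.

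Transcript length moved with this comparison. The TPM-weighted transcript length was 2962 and 3027 bases in PRC1ctrl and 2617 and 2717 bases in the libraries labelled PRC1cKO. In 5 classes of all tested genes by longest annotated transcript, the median log2 fold change was -0.03 in the shortest class and -0.47 in the longest, of 4876 bases and more. *Mga* (13931 bases) and *Ehmt1* (5953 bases) were the only members in the longest class. When fitted GC and length trends were taken off, *Ehmt1* stayed lower (-0.69, limma adjusted p = 0.00775) and *Mga* did not (-0.06, adjusted p = 0.628). With GC alone taken off, *Mga* passed at -0.70 (adjusted p = 0.0229).

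**Figure D4:**
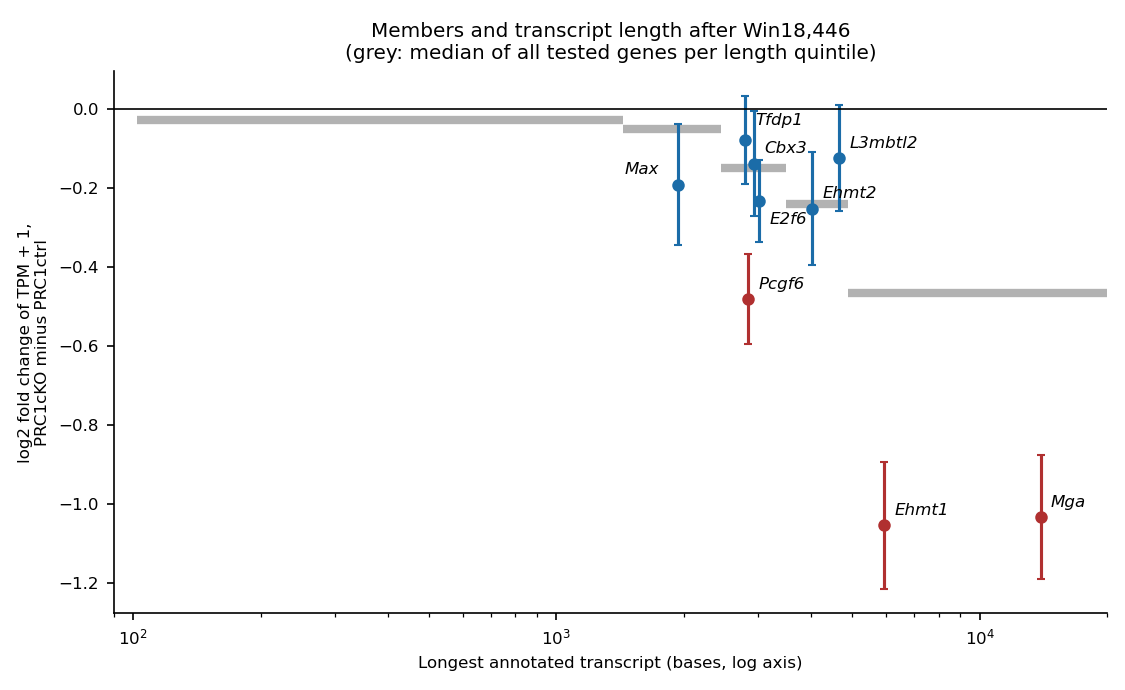
Log2 fold change on log2(TPM + 1) of each member after Win18,446, PRC1cKO minus PRC1ctrl, against its longest annotated transcript in bases on a log axis, with SE as bars, members with a limma adjusted p under 0.05 in red and medians of all tested genes per length class in grey. *Mga* and *Ehmt1* are the longest members and the lowest points, below the grey median of -0.47 of their class.

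*Pcgf6* was 46.5 and 48.7 TPM in PRC1ctrl and 33.2 and 34.5 TPM in the libraries labelled PRC1cKO. The libraries did not overlap and the replicates differed little, but the change was small (log2 fold change -0.48, SE 0.11, limma adjusted p = 0.0208), and smaller after median-of-ratios scaling (-0.24, adjusted p = 0.108) or GC correction (-0.20, adjusted p = 0.138). Without 1 library the adjusted p was 0.0750 (PRC1ctrl replicate 2), 0.109 (PRC1cKO replicate 1) and 0.0778 (PRC1cKO replicate 2). Its share of the summed PCGF TPM was 9.51% and 10.7% in PRC1ctrl and 8.02% and 7.92% in the libraries labelled PRC1cKO.

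The other 6 members had log2 fold changes from -0.25 to -0.08 and none passed. *E2f6* was 106 and 108 TPM in PRC1ctrl and 91.5 and 90.6 TPM in the libraries labelled PRC1cKO (-0.23, SE 0.10, limma adjusted p = 0.132), the closest to the threshold. *Ehmt2*, at 570.5 and 732 TPM against 521 and 566 TPM, was the largest of these in size (-0.25, SE 0.14, limma adjusted p = 0.223). *Max* (54.3 and 54.2 against 41.3 and 54.3 TPM), *L3mbtl2* (51.8 and 61.6 against 49.1 and 54.7 TPM), *Tfdp1* (236 and 243 against 214 and 241 TPM) and *Cbx3* (211 and 258 against 222 and 203 TPM) overlapped between the groups.

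In pairs, the same libraries showed a lower proportion of *Ehmt1* to *Ehmt2* (0.0795 and 0.0780 in PRC1ctrl, 0.0420 and 0.0465 in the libraries labelled PRC1cKO) and of *Mga* to *Max* (3.14 and 3.67 against 1.90 and 1.87). *Ehmt1* and *Mga* are the longer transcripts of their pairs. The share of *E2f6* in the E2F genes was 51.1% and 48.8% in PRC1ctrl and 48.8% and 46.5% in the libraries labelled PRC1cKO, a difference about as large as that between replicates.

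Relatives were lower or did not pass, in a comparison where 26.7% of all tested genes were lower and 5.87% higher. None of the 6 shared partners tested and none of the 5 other PCGF genes passed, with medians of -0.01 and -0.15 beside -0.19 for all genes. Lower were 5 of 10 MAX network genes (*Mnt*, *Mxd1*, *Mxi1*, *Mxd4* and *Mlxip*, from -0.86 to -0.48), 2 of 8 E2F and DP genes (*E2f3* and *E2f4*), 3 of 7 MBT relatives (*Sfmbt1*, *Sfmbt2* and *Mbtd1*) and 3 of 8 HP1 and H3 lysine 9 genes (*Cbx5*, *Setdb1* and *Zfp644*). These genes were named after their values were seen, and none exceeded 1 on the log2 scale. Of the 16 germline target genes, *Tuba3a* and *Tuba3b* were higher (0.52 and 0.58, limma adjusted p = 0.0129 and 0.0100), and *Ddx4*, *Stra8* and *Stag3* were lower (-0.36, -0.50 and -0.76, limma adjusted p = 0.0402, 0.0460 and 0.00822). Their median was -0.06.

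Spermatid markers were lower under the label PRC1cKO in the same libraries. The 7 spermatid markers summed to 128 to 140 TPM in PRC1ctrl and 23.5 to 25.8 TPM in the libraries labelled PRC1cKO, where 2 of the 7 were at 0. The 5 Leydig cell markers summed to 81.9 to 396 TPM and 20.2 to 72.4 TPM, but none of the 5 passed (median log2 fold change -1.56). Undifferentiated markers were 762 to 826 TPM and 599 to 675 TPM, and differentiating markers 556 to 619 TPM and 688 to 768 TPM. Of the 7 undifferentiated markers 1 passed, lower, and their median log2 fold change was -0.20, beside -0.19 for all genes. Of the 6 differentiating markers 4 passed higher and 1, *Stra8*, lower (-0.50). Sertoli cell markers overlapped, at 134 to 218 TPM and 143 to 233 TPM. The part of these cells in the levels of the members was not tested.

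The third comparison was of PRC1ctrl and the libraries labelled PRC1cKO at 2 mo without treatment. No member passed in limma, beside 2.16% of 13953 genes tested (301 genes, of all tested 0.222% higher and 1.94% lower). None reached an unadjusted p of 0.05 either, while 1985 of all genes did. The libraries did not overlap for 4 of 9 members, against 44.8% of all genes. The median log2 fold change was 0.44 for the members and 0.22 for all genes.

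*Pcgf6* came closest to the threshold. It was 114 and 109 TPM in PRC1ctrl and 79.9 and 62.1 TPM in the libraries labelled PRC1cKO, each of which lay below each control (log2 fold change -0.66, SE 0.27, limma adjusted p = 0.369, unadjusted p = 0.0568). A block for the replicate number gave an adjusted p of 0.0470. Its share of the PCGF genes was 35.3% and 30.6% in PRC1ctrl and 21.8% and 17.7% in the libraries labelled PRC1cKO.

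*Cbx3* was 3534 and 2168 TPM in PRC1ctrl and 2152 and 1677 TPM in the libraries labelled PRC1cKO (log2 fold change -0.54, SE 0.29, limma adjusted p = 0.481; 0.0198 with the block). Without PRC1ctrl replicate 1 the log2 fold change was -0.19. *E2f6* (27.3 and 32.6 against 31.9 and 34.8 TPM), *Tfdp1* (34.4 and 51.2 against 44.7 and 78.1 TPM) and *Mga* (16.4 and 18.2 against 16.1 and 24.8 TPM) overlapped between the groups. *Ehmt1* was 10.9 and 10.1 TPM in PRC1ctrl and 12.5 and 17.0 TPM in the libraries labelled PRC1cKO (0.44, SE 0.39, limma adjusted p = 0.655).

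*Max*, *L3mbtl2* and *Ehmt2* were scarce in these libraries and scattered most. *Max* was 1.12 and 1.88 TPM in PRC1ctrl and 2.35 and 7.73 TPM in the libraries labelled PRC1cKO, where replicate 2 was the higher (log2 fold change 1.13, SE 0.58, limma adjusted p = 0.471). The second library was also the higher of its pair for *L3mbtl2*, at 2.19 and 4.53 TPM against 2.23 and 11.6 TPM, and for *Ehmt2*, at 7.59 and 14.3 TPM against 9.51 and 25.6 TPM. Their SEs were 0.75 and 0.60 on the log2 scale, against 0.20 and 0.21 in the WT comparison.

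**Figure D5:**
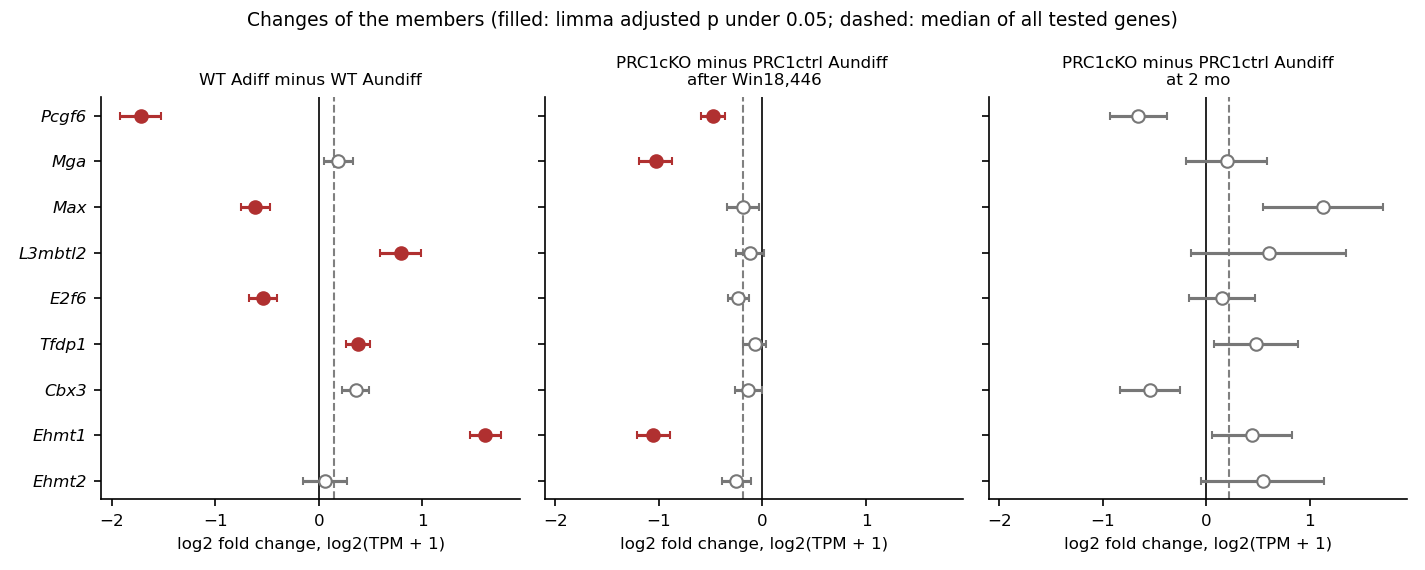
Log2 fold change on log2(TPM + 1) of each member in the 3 comparisons of groups, with SE as bars, filled points for a limma adjusted p under 0.05 and a dashed line at the median of all tested genes. In WT 6 of 9 points are filled, after Win18,446 the 3 points of *Mga*, *Ehmt1* and *Pcgf6*, and at 2 mo none.

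Of the lists of relatives and of the 16 germline target genes, none had a gene that passed at 2 mo. The median log2 fold change of the target genes was 0.49, beside 0.22 for all genes. Undifferentiated markers summed to 387 to 472 TPM in PRC1ctrl and 150.1 to 189 TPM in the libraries labelled PRC1cKO. Of these 7 markers, only *Nanos3* passed (log2 fold change -1.86, limma adjusted p = 0.0383), and the median was 0.10. Without passing, *Lin28a* (-0.91) and *Id4* (-0.11) were lower, and *Gfra1*, *Etv5*, *Ret* and *Zbtb16* were higher (0.10 to 0.45). The 7 spermatid markers summed to 760.2 to 1763 TPM in PRC1ctrl and 58.7 to 64.7 TPM in the libraries labelled PRC1cKO. Differentiating markers summed to 235 to 246 TPM and 558 to 598 TPM, and Leydig markers to 1.01 to 1.18 TPM and 20.6 to 46.7 TPM. None of the 6 differentiating markers passed (median log2 fold change 1.325). Of the 5 Leydig markers only *Hsd3b1* passed (log2 fold change 2.88, limma adjusted p = 0.0421). The part of all these cells in the levels of the members was not tested.

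Whether the difference between labels itself changed with treatment was tested as an interaction over the 8 PRC1 libraries. No member passed, beside 7.81% of 18354 genes tested (2.77% higher and 5.03% lower, and 7.74% past both thresholds). Of the genes past both thresholds 64.4% had a negative interaction, and after median-of-ratios scaling 25.3%. At an unadjusted p of 0.05 there were 4541 genes, *Ehmt1* (0.00468) and *Mga* (0.0146) among them. The interaction was -1.49 for *Ehmt1* (SE 0.36, limma adjusted p = 0.0550) and -1.23 for *Mga* (SE 0.38, limma adjusted p = 0.103), beside a median of -0.41 for all genes. The fit takes a common spread over both kits. These SEs lie below the 0.39 of the 2 mo difference alone in either gene and may be too small. *Ehmt1* passed with the replicate block (adjusted p = 0.0430). The interaction also moved with transcript length, with a median of -0.01 in the shortest class of genes and -0.68 in the longest, which holds *Mga* and *Ehmt1*. With GC and length trends taken off it was -0.85 for *Ehmt1* (adjusted p = 0.168) and -0.20 for *Mga* (adjusted p = 0.769). For *Pcgf6*, which was lower under the label PRC1cKO in all 4 libraries of both sets, the interaction was 0.17 (adjusted p = 0.725). Treatment and kit cannot be told apart in this test. Of all related lists, only *Stag3* of the germline target genes passed.

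Across the 6 groups, *Pcgf6* was ordered from 2 mo PRC1ctrl (highest) through 2 mo PRC1cKO, Win18,446 PRC1ctrl, Win18,446 PRC1cKO and WT Aundiff to WT Adiff, and no neighbours in this order overlapped. That order crosses the kits, and each member's Smart-Seq2 libraries lay apart from its TruSeq libraries. *Cbx3* was 1677 to 3534 TPM in the Smart-Seq2 libraries and 166 to 258 TPM in the TruSeq libraries, and *Pcgf6* 62.1 to 114 TPM and 7.33 to 48.7 TPM. The other 7 members were lower in the Smart-Seq2 libraries, from *Ehmt2* (7.59 to 25.6 TPM against 309 to 732 TPM) and *Max* (1.12 to 7.73 TPM against 32.0 to 54.3 TPM) to *E2f6* (27.3 to 34.8 TPM against 50.5 to 108 TPM). The transcript GC content is 38.7% for *Cbx3*, 42.2% for *Mga*, 44.5% for *Pcgf6* and 46.9% for *Tfdp1*. It is 49.2% for *E2f6*, 49.6% for *Max*, 51.2% for *Ehmt1*, 54.7% for *L3mbtl2* and 60.8% for *Ehmt2*. Of *Cbx3*, *Mga*, *Pcgf6* and *Tfdp1*, the members lowest in GC, *Cbx3* and *Pcgf6* were higher in the Smart-Seq2 libraries and *Mga* and *Tfdp1* lower. The part of GC content in this step was not tested, and kit, treatment and, against WT, strain cannot be told apart.

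Lastly, the genes with the profile nearest to that of *Pcgf6* over the 12 libraries were found by the root mean square difference of log2(TPM + 1), each centred on its own mean, among 14930 genes. They were *1300002E11Rik*, a lincRNA (0.191), *Sat1*, a polyamine acetyltransferase (0.260), *Gm773* (0.269), *Nae1*, a subunit of the NEDD8 activating enzyme (0.286), and *Afp*, α-fetoprotein (0.289). *Sat1*, for example, was 19.8 and 17.5 TPM in WT Aundiff, 3.22 and 3.33 TPM in WT Adiff and 52.2 to 72.0 TPM in the Smart-Seq2 libraries. No other member of the complex was among these 5, and the likeness includes the step between kits.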

How the data were processed

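TPM had been computed and deposited by the authors with RSEM 1.3.3, and the submitters' processing notes also name Trim Galore 0.6.6, HISAT2 2.2.1, SAMtools 1.9, HTSeq 1.6.0 and DESeq2 1.28.1 (DESeq2 was run by the authors on read counts, which were not used here) and the build GRCm38 (mm10). The study's methods name gencode vM24 for the read counts, and the annotation behind the TPM is not given in the sources used here. 55144 of the 55385 gene identifiers were found in gencode vM21 (source of transcript lengths and GC content).

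Values were transformed to log2(TPM + 1), a scale that understates changes of low genes, and compared by two-sided limma fits (limma 3.58.1, R 4.3.3; eBayes, trend = TRUE, robust = TRUE) without a replicate block. Each fit used only the libraries compared and genes with at least 1 TPM in at least 2 of them. Adjustment of p followed Benjamini and Hochberg across the whole set of tested genes. A gene passed at an adjusted p under 0.05, and the second threshold, an absolute log2 fold change above 1, is that of the study. An exact permutation test of 2 against 2 libraries cannot go below 0.33. The study's methods call the replicates independent biological replicates of pooled cells. Tables and figures were made with Python 3.11.15, pandas 2.3.3, numpy 2.4.6 and matplotlib 3.10.9, and the fits were tested on simulated data.

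The members and the lists of relatives, target genes and markers were chosen with earlier results of these data known, so their counts are descriptions. All 9 members are named. Of the lists, the genes named are those past both thresholds (at most 4 per list) and the paralogs or partners compared by level, unless stated otherwise. Alternatives were another pseudocount, other filters, median-of-ratios and quantile scaling, a replicate block, a fit over all 12 libraries, limma without its trend and robust options and leaving out each library in turn. Corrections for GC content and length, by lowess over all tested genes, were added after seeing the data.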

Additional observations from a re-analysis of the deposited data

Results flagged for a closer look

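*Stag3*, a meiotic cohesin subunit whose promoter held both the E-box and the E2F core, stood out because its difference between labels was not the same with and without Win18,446. It was 10.3 and 12.9 TPM in PRC1ctrl and 24.8 and 31.3 TPM in the libraries labelled PRC1cKO at 2 mo (log2 fold change 1.20, limma adjusted p = 0.214). After Win18,446 it was 85.2 and 105 TPM in PRC1ctrl and 53.7 and 57.4 TPM in the libraries labelled PRC1cKO (a change of -0.76, limma adjusted p = 0.00822). The interaction was -1.96 (SE 0.33, limma adjusted p = 0.0212), beside a median of -0.41 for all genes, and -1.29 after median-of-ratios scaling (adjusted p = 0.0512). It passed in 3 of the 8 fits that left out a library. Adjusted p was 0.0576 without PRC1cKO replicate 2 at 2 mo, and without a Win18,446 library it was 0.101 (PRC1ctrl replicate 1), 0.141 (PRC1ctrl replicate 2), 0.111 (PRC1cKO replicate 1) and 0.0874 (PRC1cKO replicate 2). Treatment and kit cannot be told apart. The fit takes a common spread over both kits, although the median SE of all genes was 0.42 at 2 mo and 0.17 after Win18,446. The interaction SE of 0.33 for *Stag3* lies below the 0.37 of its 2 mo difference alone and may be too small.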

How the results depend on the processing

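Precision was limited by 2 libraries per group, and depth is unknown. In WT, 6 members passed, but 3 without a filter on low values, 3 with the fit over all 12 libraries, 3 without limma's trend and robust options, and 2 to 6 when 1 library was left out (2 without WT Aundiff replicate 1 and 3 without replicate 2). *Pcgf6* and *Ehmt1* passed in 15 of 15 alternatives. *Ehmt2* in WT did not pass at 0.06 but passed with the opposite sign, at -0.38 with GC correction, -0.41 with GC and length correction and -0.38 with GC correction and the replicate block (limma adjusted p = 0.0379, 0.0234 and 0.0130). After Win18,446, 3 members passed, 1 with GC and length correction and 2 to 4 with 1 library left out.

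The counts of all genes past both thresholds moved more. At 2 mo the count of 301 became 0 without the filter, 96 at a mean TPM of at least 5, 917 with median-of-ratios scaling, 702 with quantile scaling, 1711 over all 12 libraries, 993 with GC correction, 854 with GC and length correction and 78 to 168 with 1 library left out. After Win18,446 the count of 2017 became 955 at a mean TPM of at least 5, 1339 with GC and length correction and 1189 to 2120 with 1 library left out. In the interaction the count of 1420 became 469 at a pseudocount of 0.1, 787 without the filter, 176 at a mean TPM of at least 5 and 21 to 1436 with 1 library left out. In WT it was 2183 to 3120 with 1 library left out. Members passing the interaction were 2 over all 12 libraries (*Ehmt1*, adjusted p = 0.0169, and *Mga*, 0.0431), 1 without the trend and robust options (*Ehmt1*, 0.0458) and 0 to 2 with 1 library left out. Under median-of-ratios scaling over 12 libraries, 3 of 9 members (*Pcgf6*, *L3mbtl2* and *Tfdp1*) kept their highest and lowest group.

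Replicate numbers are shared between groups, and nothing states that they pair the libraries. Same-numbered deviations correlated at 0.158 in WT, 0.381 at 2 mo and 0.122 after Win18,446. With the replicate block 7 members passed in WT (*Cbx3* in addition), the 2 mo count was 2172 (1641 with GC correction and the block), 2 members passed at 2 mo (*Pcgf6* and *Cbx3*; also 2 with GC correction and the block), and 1 passed the interaction (*Ehmt1*). Of the single members over all alternatives, 527 values stayed on their side of the threshold (changes of sign among values that did not pass are counted here), 33 no longer passed, 12 newly passed and 3 passed with the opposite sign.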
